A study of Mus musculus with 6 samples.

Results

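The enzymes described here are methyltransferases that take their methyl group from S-adenosylmethionine (SAM). They were chosen by gene symbol alone: a name starting with Dnmt, Prmt, Kmt, Setd, Smyd, Suv39h, Ezh, Ehmt or Mettl followed by a digit, and a total count of 10 or more over the 6 libraries. Of 21899 genes in the table, 68 matched the name pattern and 61 met the total. They comprise 3 DNA methyltransferases, 27 genes with histone lysine methyltransferase names, 7 protein arginine methyltransferases and 24 METTL (methyltransferase-like) genes. The libraries were made from polyA RNA of whole liver from wild-type C57BL6J mice. In the MCD group, 3 libraries came from mice given a diet lacking methionine and choline, a common dietary model of steatohepatitis. In the MCS group, 3 libraries came from mice on the matching diet that supplies both. Livers were taken after 6 weeks in both groups, and the labels give no age and no other agent. The labels do not state that the replicates are separate animals, so p-values measure the spread between libraries.

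SAM is made from methionine and ATP by methionine adenosyltransferases, and each transfer of its methyl group leaves S-adenosylhomocysteine (SAH), which inhibits most of these enzymes until it is hydrolysed. The liver makes and uses more SAM than other organs, mostly for small molecules such as glycine, guanidinoacetate and phosphatidylethanolamine. The enzymes described here use the same donor on DNA, on histones and other proteins, and on RNA. DNMT1 copies methylation onto new DNA strands and DNMT3A and DNMT3B set new marks. SET-domain enzymes mostly methylate lysines, PRMTs methylate arginines, and METTL proteins act on RNA, proteins or small thiols.

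Total counts ran between 16615469 and 21322771 per library. A level is given as CPM (counts scaled to a common library size, on library sizes scaled by TMM, which trims the genes with extreme ratios), and 3 counts corresponded to 0.1045 to 0.2267 CPM. Levels of different genes are compared only in TPM, which corrects for transcript length. A gene was called when the edgeR quasi-likelihood test gave a Benjamini-Hochberg adjusted p under 0.05 over all tested genes. TMM factors were 1.207, 1.039 and 1.407 in MCD libraries 1 to 3 and 0.8156, 0.7969 and 0.8727 in MCS libraries 1 to 3. The choice of scaling therefore bears on every result that follows.

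Most of these genes did not pass the test. Of the 59 that had enough counts to be tested, 4 rose on MCD, 6 fell and 49 were not called. Not called does not mean unchanged: in simulated data the test found 18 of 50 genes changed 2-fold. A far smaller share of genes was changed in that simulation than was called here, which makes the adjusted threshold stricter. The share found in these data may therefore differ. The 10 calls are 16.9% of the tested genes, against 24.7% of all 12599 genes tested. The 4 that rose are 6.78%, against 14.8% of all genes that rose, and 9.97% of all genes fell. Dnmt1, Dnmt3a, Prmt2 and Kmt5a rose. Mettl26, Mettl7b, Mettl8, Smyd1, Smyd2 and Setd1b fell. The log2 fold changes of MCD over MCS had a median of 0.03 over the 59 genes and 0.01 over all genes. Every MCD library lay above every MCS library for 8 of the 59 genes, against 23.9% of all genes, and below for 14, against 21.3% of all genes. At an unadjusted p under 0.05 there were 17 of the 59 genes, against 4954 of all 12599. Called with a change of more than 2-fold were 6 of the 59, against 1822 of all 12599.

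**Figure D1:**
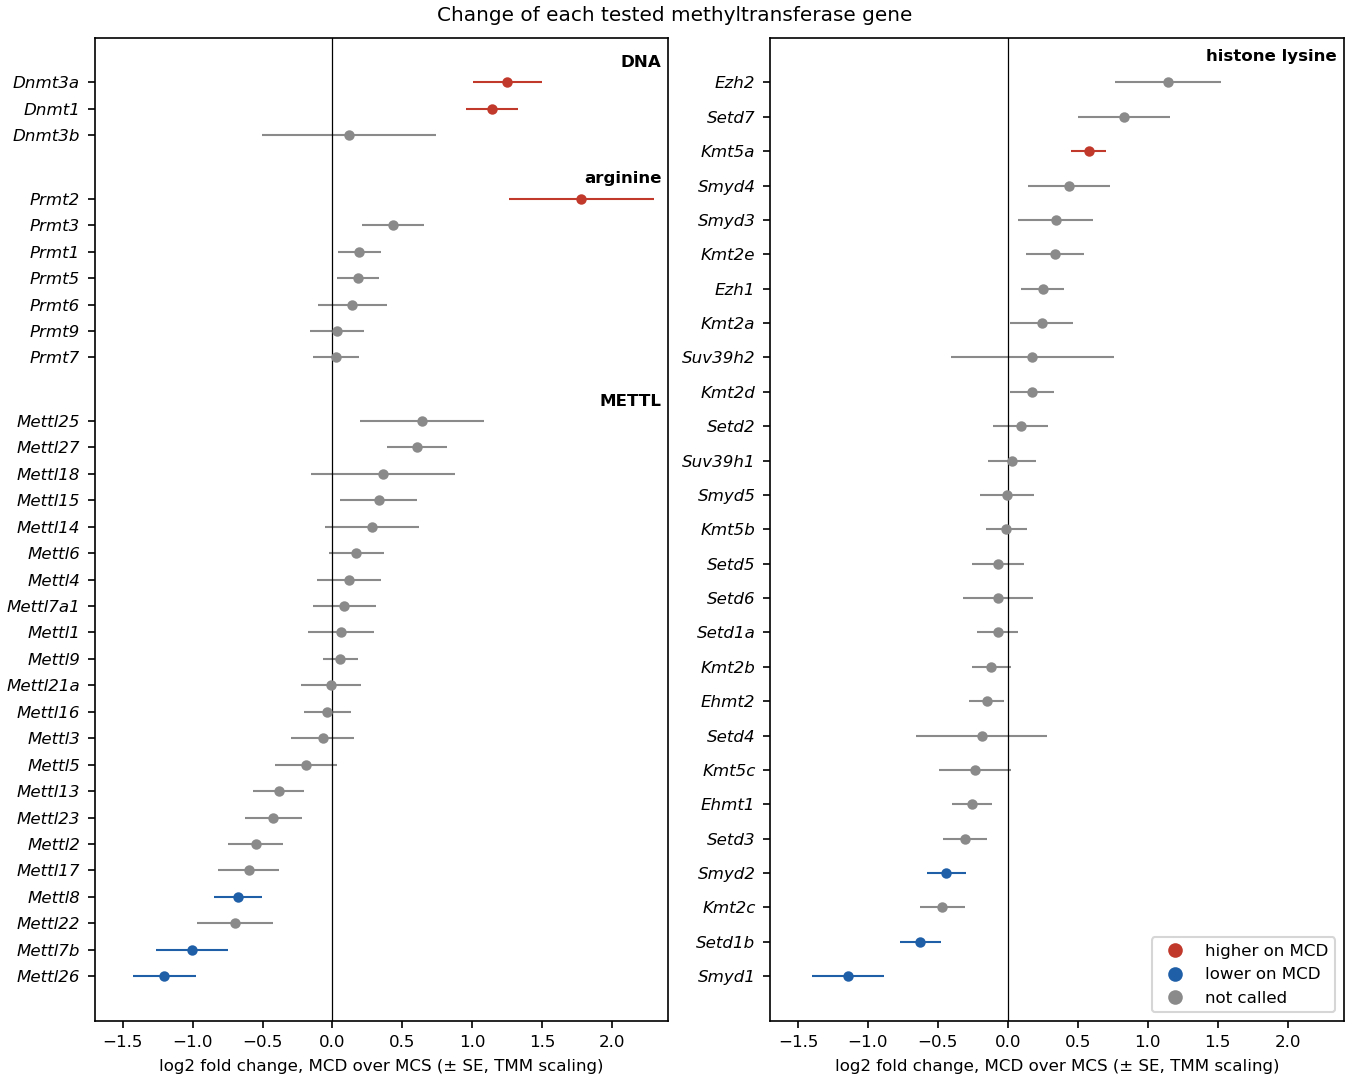
The log2 fold change of MCD over MCS (horizontal axis, TMM scaling, bars ± SE) is plotted for each of the 59 tested methyltransferase genes by class. Red points rose, blue points fell and grey points were not called; the DNA class has 2 red points of 3, and the METTL class has 3 blue points and none in red.

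The DNA methyltransferases had the highest share of called genes among the classes, 2 of 3, which is few genes for a share. In the other classes 14.8% of the histone lysine, 14.3% of the arginine and 13.6% of the METTL genes were called. Over all genes it was 24.7%. Dnmt1, the maintenance enzyme, had 24.4, 19.6 and 28.6 CPM in the MCD livers, against 12.8, 10.4 and 9.71 CPM in the MCS livers. The lowest MCD library was well above the highest MCS library. Dnmt1 rose by 1.14 ± 0.19 (SE) on the log2 scale (edgeR adjusted p = 0.00411). Dnmt3a, a de novo enzyme, had 33.6, 24.6 and 48.6 CPM in the MCD livers, against 16.8, 15.9 and 12.3 CPM in the MCS livers. Again all 3 MCD libraries were higher, and library 3 stood highest of them. Dnmt3a rose by a log2 fold change of 1.25 ± 0.25, or 2.38-fold (edgeR adjusted p = 0.00892). Dnmt3b, the other de novo enzyme, had 1.48, 0.588 and 0.940 CPM in the MCD livers and 0.978, 1.51 and 0.331 CPM in the MCS livers. Its libraries overlapped, and its log2 fold change of 0.12 ± 0.62 had an error wider than the change. Dnmt1 and Dnmt3a were called with any 1 library left out and under each scaling tried. In TPM, Dnmt3a was the more abundant in every library: the ratio of Dnmt1 to Dnmt3a was 0.797, 0.998 and 0.585 in the MCD livers and 0.670, 0.644 and 0.707 in the MCS livers, so the ratios overlapped between the diets.

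The promoters of the called DNA enzymes are shown because both genes rose together. The windows are those of RefSeq on GRCm38.p6, 250 bases before to 50 bases after an annotated transcript start. Dnmt1 is on the minus strand (chr9:20952574-20952873, 1 of 3 annotated windows of the gene) and Dnmt3a on the plus strand (chr12:3806730-3807029, also 1 of 3). Both are written 5′ to 3′ along the gene. Capitals mark matches on either strand to 3 sets of letters used for sites of E2F, the S phase transcription factor family: TTTGGCGC, TTTCGCGC and TTCCCGC.
Dnmt1: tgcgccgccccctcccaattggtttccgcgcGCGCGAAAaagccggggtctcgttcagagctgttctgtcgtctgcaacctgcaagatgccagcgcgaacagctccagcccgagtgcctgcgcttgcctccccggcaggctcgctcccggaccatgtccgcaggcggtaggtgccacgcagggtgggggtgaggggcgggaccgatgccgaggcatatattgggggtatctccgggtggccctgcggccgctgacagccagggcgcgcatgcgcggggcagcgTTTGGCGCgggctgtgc
Dnmt3a: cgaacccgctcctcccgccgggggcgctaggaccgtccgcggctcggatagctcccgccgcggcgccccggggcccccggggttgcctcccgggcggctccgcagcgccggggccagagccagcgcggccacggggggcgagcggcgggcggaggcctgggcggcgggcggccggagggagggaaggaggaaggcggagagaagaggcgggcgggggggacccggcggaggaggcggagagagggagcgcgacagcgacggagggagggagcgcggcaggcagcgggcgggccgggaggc
The Dnmt1 window holds TTTCGCGC on the opposite strand near its 5′ end, read here as GCGCGAAA, and TTTGGCGC past the transcript start. The other 2 Dnmt1 windows hold none of the 3 and have 12 and 2 CpG. Neither the Dnmt3a window shown nor the other 2 of that gene hold any. In the windows shown, Dnmt1 has 33 CpG dinucleotides in the 300 bases and Dnmt3a has 46. Over the 64 windows of the 53 methyltransferase genes with an entry, the median was 24.0 CpG, against 7.0 over all 32851 windows of the table. TTTGGCGC was found in 2 of the 64 windows (3.12%), against 0.514% of all windows. TTTCGCGC was found in 1 (1.56%), against 0.323%, and TTCCCGC in 4 (6.25%), against 4.60%. At least 1 of the 3 was in 6 of the methyltransferase windows (9.38%), against 5.33% of all windows. These 6 belong to Dnmt1, which rose, Mettl26, which fell, and Ezh2, Prmt1, Kmt5c and Suv39h2, which were not called. No window of Dnmt3a, Prmt2 or Kmt5a, which also rose, holds any. CCAAT, searched on both strands, was in 42.2% of the methyltransferase windows and 37.4% of all. TTTGAA, part of an element of some cell cycle promoters, was in 7.81% and 17.9%. These are matches of letters only. Each of the 3 E2F sets of letters holds a CG, and the shares were not adjusted for the CpG content of the windows. Nor were they adjusted for windows of the same gene that overlap.

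Of 14 genes for DNA methylation partners and the TET enzymes, which oxidise methylcytosine, 3 rose and 1 fell. That is 28.6% called, against 24.7% of all genes. Uhrf1, which brings DNMT1 to newly replicated DNA, had 8.90, 4.89 and 8.92 CPM in the MCD livers, against 1.09, 2.19 and 0.441 CPM in the MCS livers. All MCD libraries were higher, and the log2 fold change was 2.64 ± 0.52 (edgeR adjusted p = 0.00865). It was called with any 1 library left out, and was 3.29 without MCS library 2. Hells, a chromatin remodeller needed for DNA methylation, had 33, 11 and 101 counts in the MCD livers and 2, 2 and 0 counts in the MCS livers (edgeR adjusted p = 0.0159). Its MCS counts were under the floor of 3 counts, so no fold is given, and its call ended without MCS library 1 (adjusted p = 0.0617) or MCS library 2 (0.0524). Tet1 had 11, 11 and 13 counts in the MCD livers and 0, 2 and 1 counts in the MCS livers. Its call (edgeR adjusted p = 0.0467) ended with any 1 library left out (0.0636 to 0.160). Mbd1, a methyl-CpG binding protein, had 23.6, 26.4 and 26.4 CPM in the MCD livers, against 48.5, 31.8 and 35.4 CPM in the MCS livers. It fell by 0.60 ± 0.17 on the log2 scale (edgeR adjusted p = 0.0342), and the call ended without MCD library 1 (0.125), MCS library 1 (0.123) or MCS library 3 (0.0521).

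Among the genes with histone lysine methyltransferase names, 1 rose and 3 fell of 27, and the median log2 fold change was -0.01. The gene that rose encodes 1 of the H4K20 enzymes. Kmt5a, the sole enzyme for monomethylation of H4K20 and a protein whose amount follows the cell cycle, had 33.7, 28.8 and 33.7 CPM in the MCD livers, against 20.9, 21.0 and 22.6 CPM in the MCS livers. The libraries of each diet were close together and far from those of the other. Kmt5a rose by 0.58 ± 0.13 on the log2 scale (edgeR adjusted p = 0.0135). The call ended without MCD library 1 (0.0652), MCS library 1 (0.0675) or MCS library 2 (0.0663). With any 1 library left out the log2 fold change was 0.54 to 0.62. Without these same libraries the number of all genes called higher went from 1861 to 1042, 946 and 947. Kmt5b and Kmt5c, which add further methyl groups to the same lysine, were not called. Kmt5b had 14.5, 13.9 and 17.3 CPM in the MCD livers and 15.7, 14.4 and 15.9 CPM in the MCS livers. The TPM ratio of Kmt5a to Kmt5b was 4.26, 4.69 and 3.77 in the MCD livers, against 1.74, 1.36 and 2.41 in the MCS livers. The ratios did not overlap, and an exact two-sided permutation test gave p = 0.1, the smallest that 3 against 3 libraries allow (0.267 adjusted over 8 ratios of related genes).

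Ezh2 and Ezh1 are the alternative catalytic subunits of PRC2, the complex that methylates H3K27, and Ezh2 is the form of dividing cells. Ezh2 had 3.64, 2.53 and 4.77 CPM in the MCD livers and 1.55, 1.21 and 2.15 CPM in the MCS livers. Every MCD library was higher, but the log2 fold change of 1.15 ± 0.38 missed the threshold (edgeR adjusted p = 0.0552). It passed with DESeq2 (0.0296) and without MCD library 2 (0.0246 with edgeR), and with other libraries left out the adjusted p reached 0.169. Ezh1 had 20.1, 20.1 and 26.5 CPM in the MCD livers and 18.8, 17.8 and 19.6 CPM in the MCS livers (log2 fold change 0.25 ± 0.15, not called). In TPM, Ezh2 was the rarer in every library, at 0.296, 0.330 and 0.307 of the Ezh1 level in the MCD livers and 0.289, 0.134 and 0.399 in the MCS livers. The Ezh2 window (minus strand, chr6:47594981-47595280) is shown as the other one of the 64 with TTTGGCGC. The match begins 3 bases past the annotated start of this window, and 33 bases past that of the Dnmt1 window shown.
Ezh2: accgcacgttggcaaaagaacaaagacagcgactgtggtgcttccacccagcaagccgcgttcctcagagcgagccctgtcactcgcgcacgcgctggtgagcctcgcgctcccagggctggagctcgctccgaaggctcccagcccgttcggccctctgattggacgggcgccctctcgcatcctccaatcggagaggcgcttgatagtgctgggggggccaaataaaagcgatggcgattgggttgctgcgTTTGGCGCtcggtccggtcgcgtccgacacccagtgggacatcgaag
Of 11 genes for other PRC2 subunits, 1 rose and 1 fell (18.2% called, against 24.7% of all genes). Aebp2, an accessory subunit, had 28.2, 22.5 and 31.2 CPM in the MCD livers, against 13.5, 12.6 and 14.3 CPM in the MCS livers. The diets were far apart, with a log2 fold change of 1.02 ± 0.16 (edgeR adjusted p = 0.00335), and the call held with any 1 library left out. Rbbp4, a histone chaperone shared by several complexes, had 84.3, 77.7 and 72.7 CPM in the MCD livers, against 112, 102 and 119 CPM in the MCS livers. Rbbp4 fell by 0.51 ± 0.14 on the log2 scale (edgeR adjusted p = 0.0286), and its call ended without MCD library 1 or any 1 MCS library (0.0712 to 0.103). The core subunits Eed (log2 fold change 0.28) and Suz12 (0.33) were not called.

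The H3K4 methyltransferases of the COMPASS and MLL complexes include Setd1a, Setd1b and Kmt2a to Kmt2d. Setd1b was the sole one called. It had 24.2, 19.3 and 22.4 CPM in the MCD livers, against 33.9, 37.6 and 30.2 CPM in the MCS livers. No MCD library reached the MCS range, with a log2 fold change of -0.62 ± 0.14 (edgeR adjusted p = 0.0158). The call ended without MCS library 1 (0.0612) or MCS library 2 (0.0714). Setd1a, its paralog, had 14.3, 17.6 and 17.1 CPM in the MCD livers and 15.6, 18.8 and 17.3 CPM in the MCS livers. The TPM ratio of Setd1b to Setd1a was 1.20, 0.747 and 0.898 in the MCD livers, against 1.54, 1.42 and 1.301 in the MCS livers, without overlap (exact permutation p = 0.1, again the smallest possible). Kmt2c, which marks enhancers, had 13.5, 12.8 and 17.7 CPM in the MCD livers and 20.1, 20.5 and 20.4 CPM in the MCS livers. Its log2 fold change of -0.47 ± 0.16 missed the threshold (edgeR adjusted p = 0.0601) and passed it without MCD library 3 (-0.62, 0.0125); with other libraries left out the adjusted p reached 0.193. Kmt2a (0.24), Kmt2b (-0.12), Kmt2d (0.17) and Kmt2e (0.34), a relative without shown activity, were not called. Of 14 genes for partners of these complexes, none rose and 2 fell (14.3% called, against 24.7% of all genes). Cxxc1, the CpG-binding subunit of the SETD1 complexes, had 20.6, 17.2 and 18.04 CPM in the MCD livers, against 29.3, 29.2 and 29.9 CPM in the MCS livers. It fell by 0.66 ± 0.13 on the log2 scale (edgeR adjusted p = 0.0077), with any 1 library left out as well. Rbbp5, a core subunit, had 18.3, 17.9 and 16.3 CPM in the MCD livers, against 24.4, 24.6 and 21.5 CPM in the MCS livers. It fell by 0.42 ± 0.13 (edgeR adjusted p = 0.0451), and the call ended without MCD library 1 or 3 or any 1 MCS library (0.0531 to 0.151).

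The SMYD genes encode lysine methyltransferases that act largely in the cytoplasm. Smyd1, known from heart and skeletal muscle, where it serves myosin assembly, had 3.19, 3.85 and 2.65 CPM in the MCD livers, against 8.40, 6.72 and 6.23 CPM in the MCS livers. All MCD libraries were lower, and the log2 fold change was -1.14 ± 0.26 (edgeR adjusted p = 0.0148). The call ended without MCD library 1 (0.0597), MCS library 1 (0.0729) or MCS library 2 (0.0507). Of 8 skeletal muscle markers none had enough counts to be tested, their summed level was 0.317 to 0.809 CPM in the MCD livers and 0.302 to 0.662 CPM in the MCS livers, and Acta1, Tnnt3, Ckm, Myh4 and Myh1 were at 0 in all 6 libraries. Smyd2, which methylates p53 and other proteins, had 13.9, 13.3 and 12.5 CPM in the MCD livers and 16.6, 19.5 and 17.98 CPM in the MCS livers. The groups did not overlap, but the log2 fold change of -0.44 ± 0.14 passed the threshold by the narrowest margin (edgeR adjusted p = 0.049999) and the call ended with any 1 library left out (0.0591 to 0.176). Smyd3 (0.34), Smyd4 (0.43) and Smyd5 (-0.01) were not called.

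The remaining histone lysine names were not called. Setd7, which methylates H3K4 and several transcription factors, had 10.7, 7.33 and 19.3 CPM in the MCD livers and 7.13, 7.78 and 6.18 CPM in the MCS livers. MCD library 2 lay within the MCS range, and the log2 fold change was 0.83 ± 0.33 (edgeR adjusted p = 0.0963). Without MCD library 2 it was 1.07 and called (0.0111), and without MCD library 3 it was 0.37 (0.299). The log2 fold changes of the H3K9 enzymes were -0.15 for Ehmt2, -0.26 for Ehmt1, 0.03 for Suv39h1 and 0.17 for the scarce Suv39h2. Setd2, which trimethylates H3K36, was at 0.09. Setd3, which methylates a histidine of actin, was the most abundant of the class in every library, at 19.5% to 27.9% of its summed TPM in the MCD livers and 25.6% to 28.1% in the MCS livers. Setd3 had 88.9, 95.0 and 67.6 CPM in the MCD livers and 108, 100 and 103 CPM in the MCS livers (log2 fold change -0.31 ± 0.16, not called). Kmt5c (-0.23), Setd4 (-0.19), Setd5 (-0.07) and Setd6 (-0.07) complete the class. Of 14 lysine, arginine and amino-terminal enzymes with other names, none rose and 1 fell (7.14% called, against 24.7% of all genes). That one was Carm1, an arginine methyltransferase of histone H3, with 26.9, 23.8 and 24.3 CPM in the MCD livers, against 37.9, 33.0 and 32.6 CPM in the MCS livers. Its fall of 0.46 ± 0.13 (edgeR adjusted p = 0.0296) ended without MCD library 1 (0.0736), MCS library 1 (0.124) or MCS library 2 (0.0792).

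Of 23 tested demethylases, which remove these marks, none rose and 2 fell, or 8.70%, near the 9.97% of all genes that fell. Kdm6b, which removes H3K27 methylation, had 12.4, 13.3 and 14.5 CPM in the MCD livers, against 22.7, 20.3 and 23.2 CPM in the MCS livers. Kdm6b fell, with a log2 fold change of -0.72 ± 0.14 (edgeR adjusted p = 0.0079), and the call held with any 1 library left out. Kdm5c, which removes H3K4 methylation, had 45.6, 39.9 and 34.3 CPM in the MCD livers, against 68.5, 72.9 and 53.3 CPM in the MCS livers. It fell by 0.70 ± 0.17 (edgeR adjusted p = 0.0177), and the call ended without MCS library 1 (0.0734) or MCS library 2 (0.0788).

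Among the arginine methyltransferases 1 of 7 was called, and the median log2 fold change was 0.18. Prmt2, a transcriptional coactivator with weak enzyme activity, had 2.38, 1.90 and 4.01 CPM in the MCD livers, against 0.460, 0.604 and 1.32 CPM in the MCS livers. The groups did not overlap, and the log2 fold change of 1.78 ± 0.52 was the highest among the tested methyltransferases (edgeR adjusted p = 0.0369). It rests on few reads: 53, 42 and 115 counts in the MCD livers and 8, 8 and 24 in the MCS livers. The call ended without MCD library 1 (0.0849), MCD library 3 (0.0959), MCS library 1 (0.123) or MCS library 2 (0.122), and the log2 fold change was 2.37 without MCS library 3. Prmt1, the main enzyme for asymmetric dimethylarginine, was the most abundant of the class in TPM in every library. Prmt1 had 14.9, 12.9 and 14.0 CPM in the MCD livers and 13.0, 10.8 and 12.8 CPM in the MCS livers, and its libraries overlapped (log2 fold change 0.19 ± 0.16). Prmt5, the main enzyme for symmetric dimethylarginine, had a log2 fold change of 0.18 ± 0.15 and was not called. Prmt3, which acts on a ribosomal protein, lay higher in every MCD library (0.43 ± 0.22) without being called (edgeR adjusted p = 0.185). Prmt6 (0.14), Prmt7 (0.02) and Prmt9 (0.03) were not called. Of 6 partner genes 1 rose (16.7% called, against 24.7% of all genes). This was Btg2, an antiproliferative gene whose protein binds PRMT1. It had 34.9, 26.7 and 62.9 CPM in the MCD livers, against 13.4, 11.9 and 14.5 CPM in the MCS livers (log2 fold change 1.65 ± 0.30, edgeR adjusted p = 0.00769), and the call held with any 1 library left out.

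**Figure D2:**
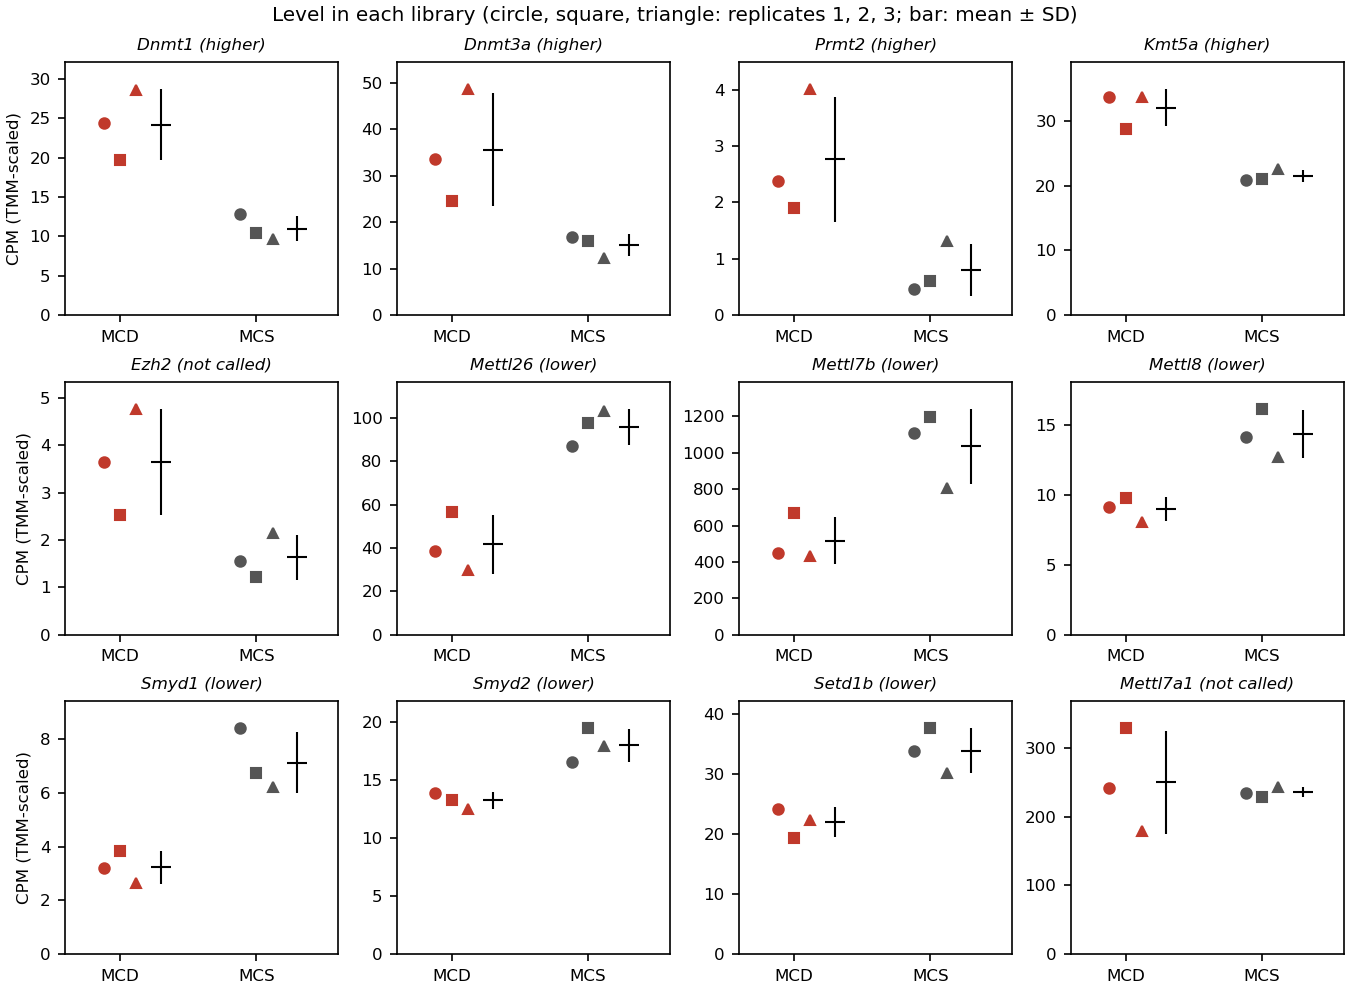
The level of 12 methyltransferase genes in each library is plotted in CPM (vertical axis, TMM-scaled, starting at 0), with MCD left of MCS and with the mean ± SD beside each diet's 3 points. The diets do not overlap in the 10 called genes or in Ezh2, while Mettl7a1 had 242, 329 and 179 CPM in the MCD livers and 234, 229 and 243 CPM in the MCS livers.

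The METTL genes held the most abundant transcripts of the whole set, and of the 22 tested none rose and 3 fell. Mettl24 and Mettl7a2 met the total but had too few reads for the test. Mettl24 had a total of 14 counts, the lowest total among the chosen genes, and Mettl7a2 had 22, of which 15 were in MCD library 3 and 6 in MCS library 1. Just outside the limit lay Mettl7a3, with 4 counts, all in MCS library 2, and the other 6 names outside it had a total of 1 or 0.

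Mettl7a1 and Mettl7b encode thiol S-methyltransferases of the endoplasmic reticulum and lipid droplets. Mettl7b was the most abundant of all 61 genes, with a mean of 1022 TPM over the 6 libraries, and Mettl7a1 was next with 228 TPM. Mettl7b had 448, 667 and 435 CPM in the MCD livers, against 1107, 1196 and 804 CPM in the MCS livers. All MCD libraries were lower, with a log2 fold change of -1.004 ± 0.26 (edgeR adjusted p = 0.0246). The call ended without MCD library 1 (0.114), MCS library 1 (0.0943) or MCS library 2 (0.105). Mettl7a1 was not called, with a log2 fold change of 0.09 ± 0.23. It took at least 99.7% of the deposited counts of the 3 Mettl7a copies in each library. The likeness of the copies was not measured, and how reads shared between them were assigned cannot be seen from these counts. The TPM ratio of Mettl7b to Mettl7a1 was 2.83, 3.10 and 3.67 in the MCD livers, against 7.18, 7.86 and 4.94 in the MCS livers. The ratio, which no scaling between libraries can move, was thus lower in every MCD library (exact permutation p = 0.1, the smallest possible, 0.267 adjusted over 8 ratios). Mettl7b made up 58.2% to 63.1% of the summed TPM of the METTL genes in the MCD livers and 67.0% to 76.0% in the MCS livers.

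Mettl26, whose substrate is not assigned here, had 38.7, 56.7 and 29.8 CPM in the MCD livers, against 87.0, 97.8 and 103 CPM in the MCS livers. The highest MCD library was well under the lowest MCS library. Mettl26 fell, with a log2 fold change of -1.20 ± 0.22 (edgeR adjusted p = 0.00719), and the call held with any 1 library left out and under each scaling tried. It was the third most abundant of the 61 genes in TPM. The promoters of Mettl26 (plus strand, chr17:25875250-25875549) and Mettl7b (minus strand, chr10:128960939-128961238) are shown as those of the abundant genes that fell. Capitals again mark a match to the E2F letters.
Mettl26: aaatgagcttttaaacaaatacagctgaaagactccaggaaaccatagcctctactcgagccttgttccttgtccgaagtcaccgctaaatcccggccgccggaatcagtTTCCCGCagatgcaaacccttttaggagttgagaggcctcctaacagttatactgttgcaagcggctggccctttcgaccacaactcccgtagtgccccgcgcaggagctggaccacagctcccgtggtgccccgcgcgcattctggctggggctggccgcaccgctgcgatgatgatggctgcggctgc
Mettl7b: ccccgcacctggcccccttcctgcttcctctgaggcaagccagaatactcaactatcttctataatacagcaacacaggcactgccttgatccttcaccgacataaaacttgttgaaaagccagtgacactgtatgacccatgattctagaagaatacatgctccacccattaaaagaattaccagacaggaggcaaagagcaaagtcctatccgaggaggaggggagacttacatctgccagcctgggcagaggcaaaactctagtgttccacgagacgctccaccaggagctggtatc
The Mettl26 window holds TTCCCGC and has 20 CpG. The Mettl7b window holds none of the E2F letters and has 5 CpG, well under the median of 24.0 over the methyltransferase windows.

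RNA enzymes make up 11 of the tested METTL genes, and 1 of them fell. Mettl8, which makes 3-methylcytidine in mitochondrial tRNAs, had 9.13, 9.82 and 8.04 CPM in the MCD livers, against 14.2, 16.2 and 12.7 CPM in the MCS livers. The groups did not overlap, with a log2 fold change of -0.67 ± 0.17 (edgeR adjusted p = 0.0224). The call ended without MCD library 1 (0.0783), MCS library 1 (0.0762) or MCS library 2 (0.104). The other 3-methylcytidine enzymes were Mettl2, at -0.55 ± 0.20 (edgeR adjusted p = 0.0705; DESeq2 called it), and Mettl6, at 0.17 ± 0.20. Mettl17, which acts in mitochondrial ribosome assembly, lay lower in every MCD library at -0.60 ± 0.22 (edgeR adjusted p = 0.0767). Mettl15, which methylates the mitochondrial 12S rRNA, was at 0.33 ± 0.27. None of these 4 was called.

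The catalytic pair of the m6A writer was not called. Mettl3, the active subunit, had 6.97, 5.52 and 6.34 CPM in the MCD livers and 7.25, 7.25 and 5.30 CPM in the MCS livers. Mettl14, the RNA-binding subunit, had 2.56, 3.94 and 3.24 CPM in the MCD livers and 3.51, 2.04 and 2.43 CPM in the MCS livers. Both overlapped, with log2 fold changes of -0.07 ± 0.23 and 0.28 ± 0.34. Of 17 partners, readers and erasers of m6A, 2 rose and 2 fell (23.5% called, against 24.7% of all genes). Wtap, the regulatory subunit of the writer, had 31.8, 32.2 and 32.1 CPM in the MCD livers, against 22.1, 21.7 and 25.5 CPM in the MCS livers. It rose by 0.47 ± 0.12 on the log2 scale (edgeR adjusted p = 0.0261), and its call ended without MCD library 1 (0.0917), MCS library 1 (0.115) or MCS library 2 (0.120). Igf2bp2, an m6A reader, had 2.29, 3.26 and 4.01 CPM in the MCD livers, against 1.32, 1.13 and 0.993 CPM in the MCS livers. Its rise of 1.47 ± 0.37 (edgeR adjusted p = 0.0226) ended as a call without MCD library 3 or any 1 MCS library (0.0529 to 0.0771). Alkbh5, an m6A eraser, had 77.1, 76.7 and 63.5 CPM in the MCD livers, against 98.4, 101 and 103 CPM in the MCS livers (log2 fold change -0.47 ± 0.14, edgeR adjusted p = 0.0358). Ythdf1, a cytoplasmic reader, had 30.2, 29.8 and 26.8 CPM in the MCD livers, against 40.4, 36.0 and 38.3 CPM in the MCS livers (-0.40 ± 0.12, edgeR adjusted p = 0.0413). The calls of Alkbh5 and Ythdf1 ended without MCD library 1 or 3 or any 1 MCS library (0.0565 to 0.117 for Alkbh5, 0.0722 to 0.152 for Ythdf1).

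Mettl16 methylates U6 snRNA and hairpins of the Mat2a mRNA, through which cells adjust SAM synthesis to its supply. Mettl16 had 11.0, 9.46 and 10.8 CPM in the MCD livers and 9.49, 11.0 and 11.6 CPM in the MCS livers, and its libraries overlapped (log2 fold change -0.04 ± 0.17). Mettl1, which makes 7-methylguanosine in tRNA, was at 0.06 ± 0.23. Mettl5, which methylates the 18S rRNA, was at -0.19 ± 0.22. Mettl4, which methylates U2 snRNA, was at 0.12 ± 0.23. None was called. Of 22 other tRNA methyltransferases and partners, 1 rose and 1 fell (9.09% called, against 24.7% of all genes). Ftsj1, which methylates the tRNA anticodon loop, had 11.4, 10.4 and 10.2 CPM in the MCD livers, against 16.9, 19.2 and 18.9 CPM in the MCS livers (log2 fold change -0.78 ± 0.14, edgeR adjusted p = 0.00711), and was called with any 1 library left out. Trmt6, the partner of the tRNA 1-methyladenosine enzyme, had 15.7, 13.2 and 12.7 CPM in the MCD livers, against 9.95, 8.23 and 9.32 CPM in the MCS livers (0.59 ± 0.17, edgeR adjusted p = 0.0334). Its call ended without MCD library 1 or any 1 MCS library (0.0752 to 0.149).

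Of 6 METTL genes with protein substrates, none was called. Mettl9, a histidine methyltransferase, was the most abundant of them in TPM and had 39.4, 42.8 and 34.97 CPM in the MCD livers and 37.0, 37.5 and 38.0 CPM in the MCS livers. Mettl13, which methylates the elongation factor eEF1A, was lower in every MCD library at -0.38 ± 0.18 (edgeR adjusted p = 0.150). Mettl22 was likewise lower, at -0.70 ± 0.27 (edgeR adjusted p = 0.0929). Mettl23 was at -0.42 ± 0.20 (edgeR adjusted p = 0.159) and was called without MCD library 2 (-0.63, 0.0399); with other libraries left out the adjusted p reached 0.360. Mettl18 (0.36) and Mettl21a (-0.01) were not called. Of the METTL genes without an assigned substrate, Mettl27 was higher in every MCD library, at 18.6, 16.5 and 15.6 CPM in the MCD livers and 14.4, 10.7 and 8.16 CPM in the MCS livers. Its log2 fold change of 0.61 ± 0.21 was not called (edgeR adjusted p = 0.0690). It was called without MCS library 1 (0.83, 0.0435), while with each other library left out the adjusted p was 0.0643 to 0.205. Mettl27 was also called with library size alone (0.00810) and with log2(TPM + 1) (0.0158). Mettl25 was at 0.64 ± 0.45 and was not called.

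The enzymes that supply SAM and clear SAH moved in both directions: of 8, 1 rose and 2 fell. That is 37.5% called, against 24.7% of all genes. Mat1a, the SAM synthase of hepatocytes, had 2669, 4326 and 2485 CPM in the MCD livers, against 5845, 6637 and 7786 CPM in the MCS livers. Each MCD library was lower, with a log2 fold change of -1.10 ± 0.31 (edgeR adjusted p = 0.0329). Mat2a, the SAM synthase of most other cells, had 156, 149 and 142 CPM in the MCD livers, against 73.4, 110 and 112 CPM in the MCS livers. Each MCD library was higher, with a log2 fold change of 0.60 ± 0.19 (edgeR adjusted p = 0.0455). Ahcy, which hydrolyses SAH, had 1192, 2310 and 916 CPM in the MCD livers, against 2736, 3007 and 5069 CPM in the MCS livers, without overlap (-1.29 ± 0.40, edgeR adjusted p = 0.0465). The call of Mat1a ended without MCD library 1 or 3 or any 1 MCS library (0.0520 to 0.150), and so did that of Ahcy (0.0839 to 0.166). The call of Mat2a ended without MCD library 1 or 2 or any 1 MCS library (0.0549 to 0.173).

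A further list held mainly methyltransferases of small molecules, which carry most of the SAM use of hepatocytes, with Icmt and Pcmt1, which act on proteins. Of its 13 tested genes 1 rose and 4 fell (38.5% called, against 24.7% of all genes). Inmt, which methylates indole amines, had 86.1, 160 and 77.7 CPM in the MCD livers, against 411, 379 and 945 CPM in the MCS livers. The diets were far apart, with a log2 fold change of -2.42 ± 0.44 (edgeR adjusted p = 0.00749), and the call held with any 1 library left out. Gnmt, which methylates glycine and buffers the SAM level, had 374, 702 and 299 CPM in the MCD livers, against 885, 900 and 2100 CPM in the MCS livers. All MCD libraries were lower (-1.50 ± 0.44, edgeR adjusted p = 0.0377), and the call ended without MCD library 1 or 3 or any 1 MCS library (0.0604 to 0.130). Icmt, which methylates prenylated proteins, had 33.3, 34.1 and 28.9 CPM in the MCD livers, against 51.4, 47.6 and 39.2 CPM in the MCS livers (-0.52 ± 0.15, edgeR adjusted p = 0.0313). Coq5, an enzyme of coenzyme Q synthesis, had 20.0, 21.3 and 17.3 CPM in the MCD livers, against 26.0, 27.5 and 27.6 CPM in the MCS livers (-0.47 ± 0.13, edgeR adjusted p = 0.0313). The call of Icmt ended without MCD library 1 or 3 or MCS library 1 or 2 (0.0541 to 0.128), and that of Coq5 without MCD library 1 or 3 or any 1 MCS library (0.0578 to 0.112). Hnmt, which inactivates histamine, had 22.3, 26.7 and 25.04 CPM in the MCD livers, against 13.6, 13.4 and 19.1 CPM in the MCS livers. It rose by 0.68 ± 0.17 on the log2 scale (edgeR adjusted p = 0.0225), and the call ended without MCD library 1 (0.0514), MCS library 1 (0.0998) or MCS library 2 (0.100). Gnmt, Coq5, Tet1 and Ythdf1 were picked for naming after their values were seen.

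**Figure D3:**
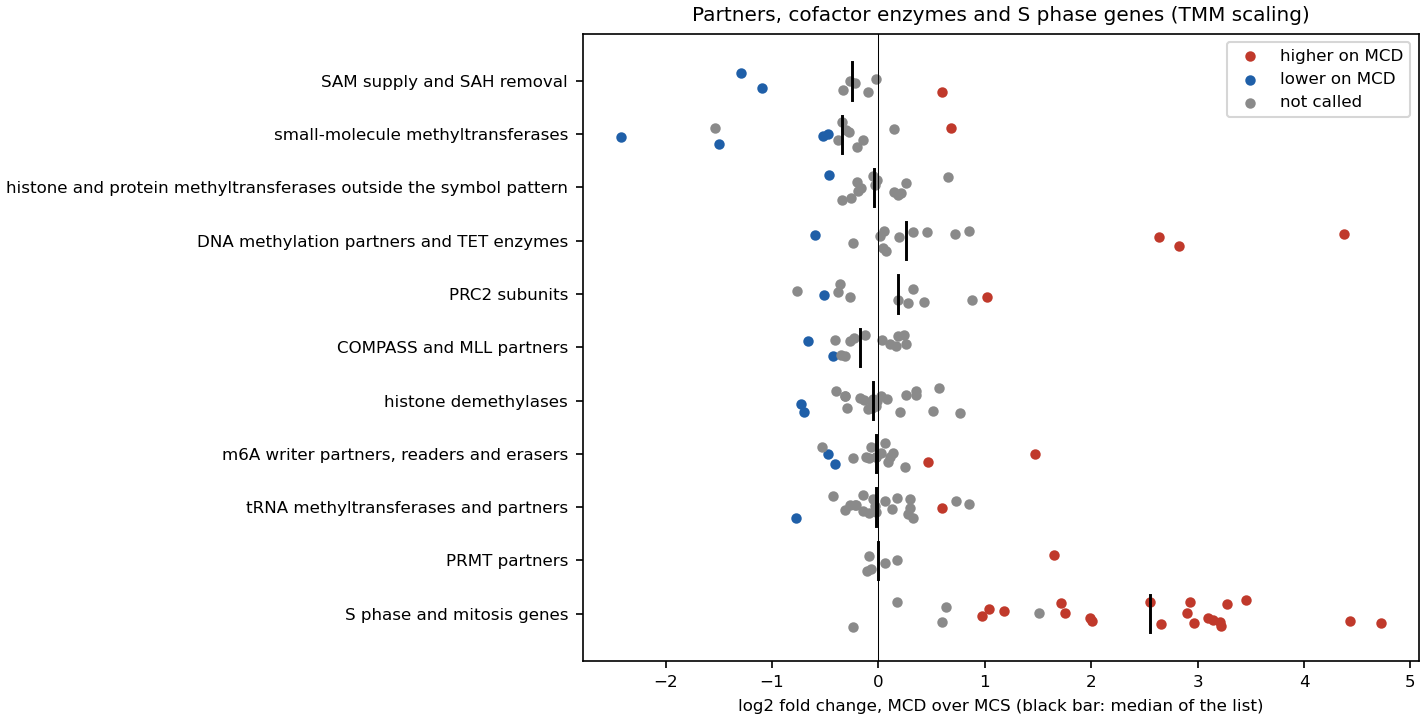
The log2 fold change of MCD over MCS (horizontal axis, TMM scaling) is plotted for each tested gene of 11 lists of partners, cofactor enzymes and S phase genes, with a black bar at the median of each list. The S phase and mitosis genes lie mostly to the right, with a median of 2.55 and 20 of 25 red, while the medians of the other lists lie between -0.34 and 0.26.

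The called genes moved beside large shifts in other genes. For the counts that follow, 14.8% of all tested genes rose and 9.97% fell. Of 25 tested S phase and mitosis genes, 20 rose and none fell, and their summed level was 242, 151 and 246 CPM in the MCD livers, against 78.2, 81.1 and 73.3 CPM in the MCS livers. Mcm3 (log2 fold change 2.01), Mcm6 (2.66) and Cdk1 (3.15) were among them, each called with any 1 library left out. Of 14 recruited macrophage markers, all 14 rose, with a summed level of 1712, 1149 and 2921 CPM in the MCD livers, against 138, 139 and 118 CPM in the MCS livers. Of 11 stellate cell and myofibroblast markers 7 rose, with a sum of 696, 276 and 1317 CPM in the MCD livers, against 174, 114 and 170 CPM in the MCS livers. Of 7 tested cholangiocyte markers 5 rose, and of 4 neutrophil markers 2 rose. Spp1 is in both the recruited macrophage and the cholangiocyte list, so its rise is counted in each. Of 8 Kupffer cell markers 3 fell and none rose, with 4 log2 fold changes above 0 and 4 below. Their sum overlapped between the diets, at 257, 405 and 430 CPM in the MCD livers and 329, 366 and 407 CPM in the MCS livers. The counts for T and NK cells (2 of 9 higher) and B cells (1 of 4 higher) are small and not far from the 14.8% of all genes that rose. None of 9 sinusoidal endothelial markers was called, but their sum was 94.3, 68.1 and 341 CPM in the MCD livers and 106, 145 and 397 CPM in the MCS livers. Library 3 was highest for all 9 in both diets, so these 2 libraries stood apart from the other 4. Of 10 hepatocyte markers 3 fell, with a sum of 83902, 105441 and 63389 CPM in the MCD livers, against 99309, 99859 and 122821 CPM in the MCS livers. MCD library 3 was highest for the macrophage and stellate sums and lowest for the hepatocyte sum, and MCD library 2 the reverse. Dnmt1, Dnmt3a and Prmt2 shared the order of the macrophage sum over the MCD libraries (library 3 above 1 above 2), as did 67.9% of all genes that rose. Of the 6 that fell, 4 (Mettl26, Mettl7b, Mettl8 and Smyd1) had the opposite order (2 above 1 above 3), as did 64.8% of all genes that fell. The part of these cell types in the methyltransferase results was not tested, and in whole liver fewer cells of a type and less RNA per cell cannot be told apart.

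How the libraries were scaled decided the number of calls. With library size alone all genes shifted up to a median log2 fold change of 0.57, and 93.6% of all calls were higher on MCD, against 59.7% with TMM. Among the methyltransferases 21 then rose and 1 fell. Dnmt1, Dnmt3a, Prmt2, Kmt5a and Mettl26 were called in the same direction with TMM, with library size alone, with DESeq2 and with log2(TPM + 1). Setd1b, Smyd1, Smyd2, Mettl7b and Mettl8 were called lower with TMM and with DESeq2, and were not called with library size alone or with log2(TPM + 1), where Smyd2 was at 0.11 and 0.21 and Setd1b at -0.06 and 0.0045. Of the other genes named as lower, Inmt alone was also called lower with library size alone and with log2(TPM + 1). Mat1a, Ahcy, Gnmt, Kdm5c, Kdm6b and Ftsj1 kept their direction there without a call, while Icmt, Coq5, Carm1, Rbbp4, Rbbp5, Alkbh5 and Ythdf1 turned positive under both, and Mbd1 and Cxxc1 with log2(TPM + 1), none with a call. The partner genes named as higher were also called higher under both, except Hells and Tet1 with log2(TPM + 1), and Tet1 was not called with DESeq2 either. In the authors' deposited table, whose fold changes rest on TPM, 17 of the 61 genes were higher and 1 was lower on MCD at an FDR under 0.05, and the 61 values had a median of 0.67 on the log2 scale.

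**Figure D4:**
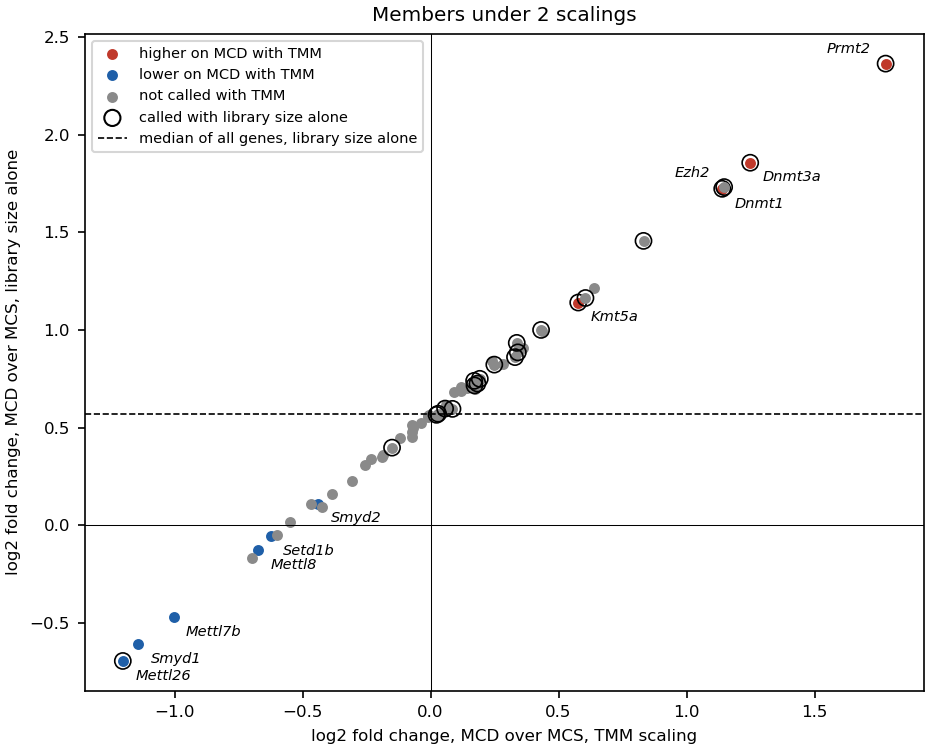
The log2 fold change of MCD over MCS with library size alone (vertical axis) is plotted against that with TMM scaling (horizontal axis) for the 59 tested methyltransferase genes. The points lie along a line shifted up by about the median of all genes, 0.57 (dashed), and circles mark the 22 genes called with library size alone, of which Mettl26 is the sole one below 0.

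In TPM averaged over the 6 libraries, 2 of the 61 genes were above 100, 12 were between 10 and 100, 43 between 1 and 10, and 4 under 1. Behind Mettl7b, Mettl7a1 and Mettl26 (90.4 TPM) came Setd3 (62.8 TPM), Mettl9 (41.8 TPM), Ehmt2 (31.3 TPM), Prmt1 (27.7 TPM) and Kmt5a (23.9 TPM). The 4 lowest were Dnmt3b (0.435 TPM), Suv39h2 (0.433 TPM), Mettl7a2 (0.175 TPM) and Mettl24 (0.133 TPM). The neighbours Dnmt3b and Suv39h2 do not differ beyond their spread over libraries. The called genes were spread over this range, with 3 of the 10 among the 8 most abundant and Prmt2 at 1.83 TPM.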

How the data were processed

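Liver polyA RNA of 6 libraries was measured, 3 per diet as the sample titles give it. Per the labels' protocols, RNA was taken with Trizol, captured on beads, fragmented and made into cDNA libraries; strandedness was not given in the sources used here, so reads of a gene and an overlapping antisense gene cannot be told apart. Per the submitters' processing notes, RSEM, StringTie 1.3.1, HISAT2 2.1.0, Bowtie2 2.2.8 and fastp 0.18.0 were used, with the GRCm39 build. The deposited counts hold no fractions, yet TPM exceeds 0 at 64 entries whose count is 0; they were therefore taken to be expected counts that the authors had rounded. The authors also deposited TPM per library, and a log2 fold change, p-value and FDR per gene, by a test not given in the sources used here.

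Counts were tested with edgeR 4.0.16 (R 4.3.3; TMM, filterByExpr by group, at least 10 counts, robust quasi-likelihood fit, diet as the only term), with Benjamini-Hochberg adjustment over 12599 genes, and the fit was checked on simulated data. The SE was computed as the absolute log2 fold change over √F. TPM ratios were tested by exact permutation with scipy 1.17.1. Counting error alone sets the floors of 3 counts. Replicates differed by more than sampling noise in every pair, with a chi-square of 13.69 to 155.2 per degree of freedom. Alternatives were library size alone, DESeq2 1.42.0, a total count of 10 or more as the filter, limma 3.58.1 on log2(TPM + 1), the replicate number as a block, each library left out, and an adjusted p under 0.01. The methyltransferases, the partner and marker lists and the tests were chosen with earlier results of these data known. Each methyltransferase is named, called ones with every library; of each partner list the 3 called genes with the smallest p are named. Pali1 and Trmt61b of those lists were not found in the table by symbol. The labels do not say whether libraries of the same number share a batch, so replicate numbers were not taken to pair them. Same-number correlations of deviations were 0.063, 0.147 and 0.246, and those between different numbers ran from -0.223 to 0.132. Each MCD library correlated most with the MCS library of its own number, while MCS library 1 correlated more with MCD library 2 (0.132). A shared batch was not tested, and the replicate block is given as an alternative. Promoter windows come from RefSeq on GRCm38.p6; no coordinates of the authors' build are given.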

Additional observations from a re-analysis of the deposited data

How the results depend on the processing

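Counts of methyltransferases higher and lower on MCD were 4 and 6. They became 21 and 1 with library size alone, 19 and 1 with limma on log2(TPM + 1), and 2 and 1 at an adjusted p under 0.01. With 1 library left out they ranged over 2 to 6 higher and 1 to 6 lower. All genes higher and lower numbered 1861 and 1256; they became 5095 and 348 with library size alone, 5449 and 264 with log2(TPM + 1), 754 and 304 at an adjusted p under 0.01, and 946 to 2363 higher and 400 to 2072 lower with 1 library left out. The 2 DNA methyltransferases that rose did so under every alternative listed here. Histone lysine genes were 1 higher and 3 lower; they became 9 and 0 with library size alone, 6 and 0 with log2(TPM + 1), 0 and 0 at an adjusted p under 0.01, and 0 to 3 higher and 0 to 3 lower with 1 library left out. DESeq2 and the replicate block each gave 2 higher. Arginine genes, 1 higher, became 5 with library size alone, 6 with log2(TPM + 1), 0 at an adjusted p under 0.01 and 0 to 1 with 1 library left out. METTL genes, 0 higher and 3 lower, became 5 and 1 with library size alone, 5 and 1 with log2(TPM + 1), 0 and 1 at an adjusted p under 0.01, and 0 to 1 higher and 1 to 4 lower with 1 library left out. The replicate block gave 1 higher METTL gene. Under that block 6 methyltransferases rose and 5 fell: Ezh2 (adjusted p = 0.0320) and Mettl27 (0.0390) passed and Smyd2 (0.0859) did not. Library size alone and log2(TPM + 1) moved the median of all genes up (0.57 and 0.53). Among named genes called with TMM or in either of these fits, they turned these log2 fold changes positive: Ehmt2 (0.40 and 0.50), Setd3 (0.23 and 0.37), Smyd2 (0.11 and 0.21), Icmt (0.027 and 0.14), Carm1 (0.093 and 0.19), Rbbp4 (0.038 and 0.15), Rbbp5 (0.13 and 0.23), Alkbh5 (0.067 and 0.18), Ythdf1 (0.14 and 0.21) and Coq5 (0.070 and 0.20), and, with log2(TPM + 1) only, Setd1b (0.0045), Mbd1 (0.066) and Cxxc1 (0.00031). Few reads limit Prmt2, Tet1, Hells, Mettl24 and Mettl7a2.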
